A study of Ammopiptanthus mongolicus with 6 samples.

Results

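In leaves of Ammopiptanthus mongolicus, 57 of 67955 assembled transcripts (unigenes) had read rates at or under 0.5 of the untreated control in each of 3 drought libraries while meeting a looser limit in cold. They were chosen by measured values. A member had at least 30 reads in the control, a drought rate of at most 0.5 of the control at 1, 24 and 72 h, a rate above 0.5 of the control in at least 1 of the 2 cold libraries, and a cold 72 h rate under 2 times the control. A rate is the number of uniquely assigned reads over the total of the library, and counts under 3 were set to 3 for this rule. Of 17074 unigenes with at least 30 control reads, 131 met the drought limits. Of these, 58 were left out because both cold rates were at most 0.5 of the control, and 16 because cold 72 h was at 2 times the control or more. Every ratio to the control below therefore describes the choice and is no evidence for it.

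The samples are wild-type plants of a desert shrub of the legume family that keeps its broad leaves through winter. The labels give the tissue as mesophyll, the photosynthetic tissue of the leaf, and their protocol describes frozen leaves. The groups are an untreated control, drought stress for 1, 24 and 72 h, and cold stress for 1 and 72 h, with 1 library each. The series' design text names triplicates, but no second library of any group was analysed here, so no difference below could be checked against replicates and no p-values are given. How the stresses were applied, how many plants were pooled and the time of day of sampling are not stated in the labels.

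As background, a leaf that loses water accumulates abscisic acid, closes its stomata and slows growth, and transcripts of growth, cell division and photosynthesis are widely known to be reduced in such leaves. Cold shares part of this signalling, through abscisic acid and transcription factors of the DREB family, and adds responses of its own. The files name the unigenes by assembly identifier only. No function, pathway list or mesophyll marker could therefore be assigned to any member, and no sequence is shown. In leaf RNA of this kind, fewer cells of a type and less RNA per cell cannot be told apart.

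Depth was similar across libraries, from 4.30 M assigned reads at drought 24 h to 4.67 M in the control, so the smallest total was 0.920 of the largest and 1 read stood for 0.214 to 0.233 CPM. Among the 17074 unigenes with at least 30 control reads, the median log2 ratio to the control was -0.01, -0.05 and -0.03 in drought at 1, 24 and 72 h and 0.01 in cold at 1 h. It was -0.31 at cold 72 h, the library that stands apart from the others. Trimmed-mean (TMM) scaling brought that median to -0.03, so cold 72 h ratios to the control are about 0.3 lower on the log2 scale with library totals than with TMM. The corresponding medians of the 57 members were -1.32, -1.93 and -1.61 in drought, -0.73 at cold 1 h and -0.93 at cold 72 h. With TMM scaling the cold 72 h median of the members was -0.65.

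The working name of the set, lower throughout drought but not in cold, was only partly borne out by the values. Of the 57 members, 56 were below the control at cold 1 h and 49 at cold 72 h, and 48 were below it in both. Over the unigenes with at least 30 control reads, 48.6% were below the control at cold 1 h and 68.4% at cold 72 h. The control was the highest of the 6 libraries for 48 members, with cold 72 h the highest for 8 and cold 1 h for 1. The median ratio to the control was 0.605 at cold 1 h (range 0.276 to 1.86) and 0.524 at cold 72 h (0.0560 to 1.87), against 0.401, 0.263 and 0.328 in drought at 1, 24 and 72 h. The 95% interval of the cold 1 h ratio lay wholly below 1 for 31 members, and that of cold 72 h for 38, with both below 1 for 20. Intervals that held 1 in both cold libraries were found for 7 members. No matching shares over all unigenes were computed for these interval counts or for the highest library, so they describe the members only. The set is therefore described here as lower than the control in drought and, for most members, lower to a smaller or time-dependent extent in cold. Since 1 control library enters every one of these ratios, a high value in that library cannot be told apart from a low value common to the stress libraries.

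**Figure D1:**
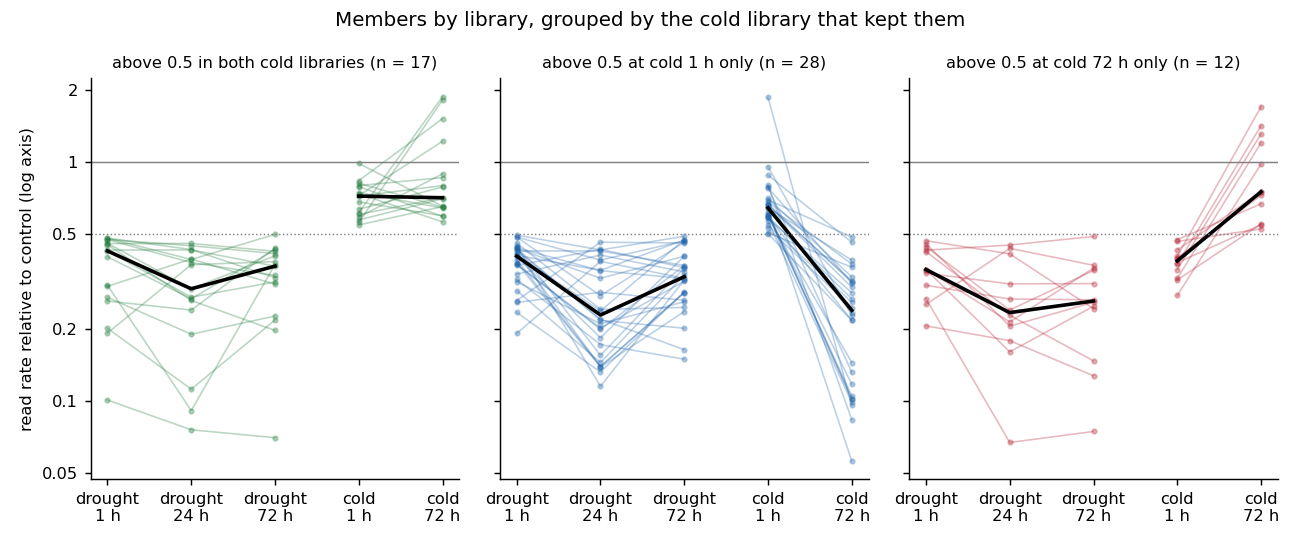
Read rate of each of the 57 members relative to the control on a log axis, in the 3 drought and 2 cold libraries, in 3 panels by the cold library in which the ratio exceeded 0.5 (17, 28 and 12 members). Thin lines are members, thick lines are medians, the solid grey line marks the control and the dotted line 0.5; the drought points lie under 0.5 by the rule, and the panels differ, by construction, in which cold points lie above it.

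A unigene was called higher or lower between 2 libraries when the whole exact 95% interval of the ratio lay beyond 2-fold. The interval covers counting error only and compares libraries, not conditions. Under this stricter criterion 15 members were called lower at drought 1 h, where 0.404% of the unigenes with at least 30 control reads were. At 24 h 34 members were called lower against 1.71%, and at 72 h 24 members against 1.36%. All 3 times were called for 13 members against 0.234%. The rule used the same contrasts, so nothing is read from the distance to these shares. What the counts do show is how firmly single members are measured. Of the 57, 19 were called at no drought time, and 15 of these had fewer than 60 control reads. Of the 31 members with at least 60 control reads, 27 were called at 1 or more times.

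Unigene21658_All (630 bases) had the lowest upper bound of the pooled drought ratio. The control gave 43 reads, the drought libraries 4, 1 and 2 reads at 1, 24 and 72 h, and the cold libraries 33 and 34 reads at 1 and 72 h. The drought libraries stood far below the other 3, which were close to each other. Pooled over the 3 drought libraries its rate was 17.4-fold below the control (95% interval 7.77 to 45.9). Its cold ratios were 0.795 (0.489 to 1.28) at 1 h and 0.859 (0.531 to 1.38) at 72 h, both with intervals that held 1. It is 1 of the 7 members whose intervals held 1 in both cold libraries.

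CL354.Contig1_All (654 bases) stood at 26.5 RPKM in the control, 7.10, 1.78 and 1.98 RPKM in drought at 1, 24 and 72 h, and 10.5 and 19.2 RPKM in cold at 1 and 72 h. RPKM is the deposited level, which scales reads by unigene length and by the library total. Its pooled drought rate was 7.41-fold below the control (4.84 to 11.6). In cold it was low at 1 h, with a ratio of 0.396 (0.253 to 0.607), and nearer the control at 72 h, with 0.724 (0.504 to 1.03).

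Unigene576_All (956 bases) had 79 control reads, 15, 13 and 10 reads in drought and 27 and 95 reads in cold at 1 and 72 h. Its lowest library was drought 72 h and its highest was cold 72 h. The pooled drought rate was 5.89-fold below the control (3.95 to 8.92), while the cold 72 h ratio of 1.31 (0.959 to 1.78) did not exclude equality with the control.

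CL956.Contig1_All (1152 bases) had 97 control reads, 18, 10 and 21 in drought and 51 and 58 in cold. It was lowest at drought 24 h and its cold values lay between drought and control. The pooled drought rate was 5.61-fold below the control (3.94 to 8.08). Its reads covered 31.3% of its length in the control and between 17.7% (drought 24 h) and 32.8% (cold 1 h) elsewhere, so most of its length had no reads.

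CL7776.Contig1_All (1648 bases) was the 1 member called between drought times. Its level was 54.1 RPKM in the control, 16.5 at drought 1 h, 4.94 at 24 h and 20.1 at 72 h. Both cold levels, 42.6 RPKM at 1 h and 32.0 at 72 h, exceeded every drought level. At 24 h it was 10.96-fold below the control (7.76 to 15.96), and from 24 to 72 h it was 4.08-fold higher (2.81 to 6.07).

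**Figure D2:**
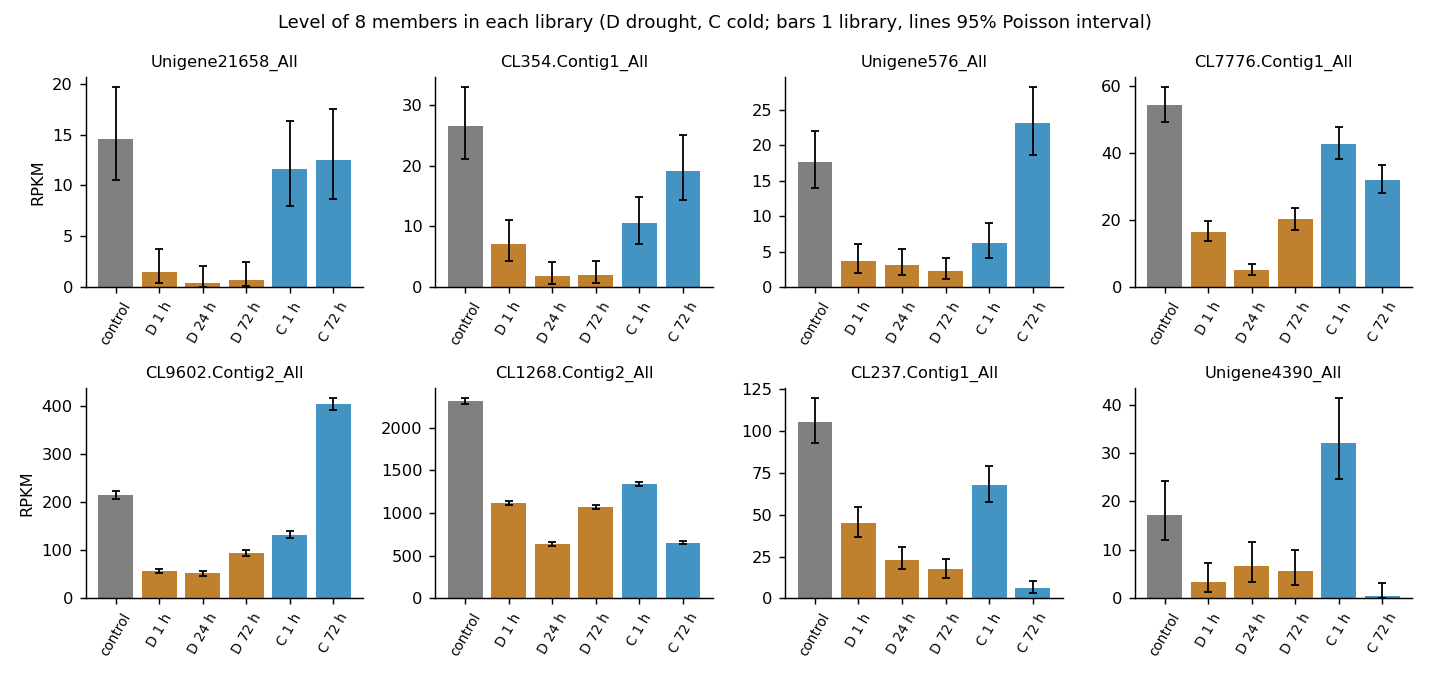
Deposited RPKM of 8 members in each of the 6 libraries on linear axes that start at 0, with the control in grey, drought (D) in brown and cold (C) in blue. Each bar is 1 library and each line its 95% Poisson interval; drought bars are under 0.5 of the control in all 8, while the cold bars range from near 0 (Unigene4390_All at 72 h) to above the control (CL9602.Contig2_All at 72 h).

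The 2 members with the most control reads were both contigs of clusters. CL1268.Contig2_All (1537 bases) stood at 2308 RPKM in the control (95% Poisson interval 2273 to 2344) and held 65.0% of the control reads of all 57 members. Its drought levels were 1119, 636 and 1066 RPKM at 1, 24 and 72 h, and its cold levels were 1342 and 654 RPKM at 1 and 72 h. The lowest libraries were thus drought 24 h and cold 72 h, at ratios of 0.276 and 0.283 to the control. CL9602.Contig2_All (2442 bases) stood at 215 RPKM in the control (207 to 224), 56.4, 51.7 and 93.8 RPKM in drought and 132 and 403 RPKM in cold. Its cold 72 h level was the highest of the 6 and its drought 24 h level the lowest.

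Together the members took 0.546% of the control's assigned reads, against 0.239, 0.145 and 0.231% under drought for 1, 24 and 72 h, and 0.321 and 0.296% in cold at 1 and 72 h. Without CL1268.Contig2_All these shares were 0.191% in the control, 0.0667, 0.0476 and 0.0668% in drought and 0.114% and 0.196% in cold. With that 1 member left out, the cold 72 h share thus moved from below the control's to slightly above it. This rested on CL9602.Contig2_All: without both, the shares were 0.138% in the control and 0.0972% at cold 72 h.

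Among the other members with a high control level, CL9492.Contig2_All, the shortest at 202 bases, had 245 RPKM in the control, 117, 95.6 and 122 RPKM in drought and 204 and 371 RPKM in cold. Unigene28109_All (389 bases) had 221 RPKM in the control, 78.2, 47.2 and 79.2 in drought and 71.8 and 265 in cold, so that cold 1 h was as low as drought while cold 72 h was above the control. Unigene2900_All (478 bases) had 174 RPKM in the control, 78.2, 45.7 and 34.3 in drought and 102 and 155 in cold. Unigene16979_All (552 bases) had 136 RPKM in the control, 48.4, 21.9 and 34.0 in drought and 43.8 and 74.96 in cold, with cold 1 h among the low libraries. The remaining members were of low to moderate abundance: 39 of the 57 had 30 to 99 control reads.

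The cold libraries divided the members into 3 groups. Both cold rates were above 0.5 of the control for 17 members, only cold 1 h for 28 and only cold 72 h for 12. Of unigenes with at least 30 control reads, 2.64% were at or under 0.5 at cold 1 h and 19.1% at cold 72 h. Nothing is therefore read from the unequal sizes of these groups. With TMM or median-of-ratios scaling 19 of the same 57 members were above 0.5 in both and 2 in neither. The members of the first group had a median ratio of 0.718 at cold 1 h and 0.707 at cold 72 h. Besides Unigene21658_All, CL956.Contig1_All, CL7776.Contig1_All, CL9602.Contig2_All, CL9492.Contig2_All and Unigene2900_All it held Unigene17382_All (362 bases), with 79 control reads, 14, 27 and 30 in drought and 62 and 47 in cold. Here drought 1 h was the lowest library and cold 1 h the nearest to the control.

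The 28 members above 0.5 at cold 1 h only were, by the grouping, at or under 0.5 at cold 72 h. Their median ratio was 0.641 at 1 h and 0.239 at 72 h. Of the 28 members, 18 were called lower than the control at cold 72 h. By construction no such call can fall in the other groups, which lie above 0.5 at that time. Over all unigenes with at least 30 control reads, 7.05% were called lower there. The count of 18 was 14 with TMM and 11 with median-of-ratios scaling. The share of 7.05% is for library totals, and no matching share was computed with these scalings. CL237.Contig1_All (510 bases) is in this group. It had 252 control reads, 99, 51 and 41 in drought, 156 at cold 1 h and 13 at cold 72 h. Its cold 72 h rate was 17.8-fold below the control (10.2 to 34.0), further than any drought library of its own. Unigene7425_All (385 bases) had 149 control reads, 52, 19 and 35 in drought, 87 at cold 1 h and 14 at cold 72 h. Both had cold 72 h as the lowest of their 6 libraries.

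Other members of this group had the same order of cold times, which the grouping sets, at lower counts. Unigene19406_All (282 bases) had 74 control reads, 16, 9 and 21 in drought and 43 and 8 in cold. Unigene23755_All (400 bases) had 101 control reads, 30, 16 and 15 in drought and 76 and 29 in cold. Unigene4390_All (421 bases) was the 1 member above the control at cold 1 h, with 34 control reads, 6, 12 and 11 in drought, 61 at cold 1 h and 1 at cold 72 h. Its cold 1 h ratio was 1.86 (1.20 to 2.92) and was not called, and no member was called higher at cold 1 h, against 0.398% of unigenes. Cold 72 h was the lowest of all 6 libraries for 14 members. No matching share over all unigenes was computed, so nothing is read from this count.

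The 12 members above 0.5 at cold 72 h only had the opposite order, again set by the grouping. Their median ratio was 0.385 at cold 1 h and 0.749 at cold 72 h. The 3 members called lower than the control at cold 1 h, Unigene16979_All, Unigene37125_All and Unigene28109_All, belong here by the same construction, beside 0.615% of unigenes. Unigene37125_All (788 bases) had 219 control reads, 85, 46 and 32 in drought and 80 and 110 in cold. CL8175.Contig1_All (1077 bases) had 257 control reads, 81, 73 and 79 in drought, 100 at cold 1 h and 402 at cold 72 h. In the former no stress library exceeded 0.546 of the control, whereas in the latter cold 72 h was 1.70-fold above it (1.45 to 1.995).

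At cold 72 h, 8 members were above the control. For 6 of them the interval lay above 1: CL9602.Contig2_All, CL9598.Contig1_All, CL8175.Contig1_All, CL9492.Contig2_All, CL3900.Contig1_All and Unigene28109_All. The others were Unigene576_All and Unigene27090_All, whose intervals held 1. None of the 57 was called higher than the control at cold 72 h, where 3.65% of unigenes were; the rule itself keeps ratios under 2. With TMM, upper-quartile or median-of-ratios scaling CL9602.Contig2_All was called, and 10 or 11 members were above the control. The share of 3.65% is for library totals, and no matching share was computed with these scalings.

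**Figure D3:**
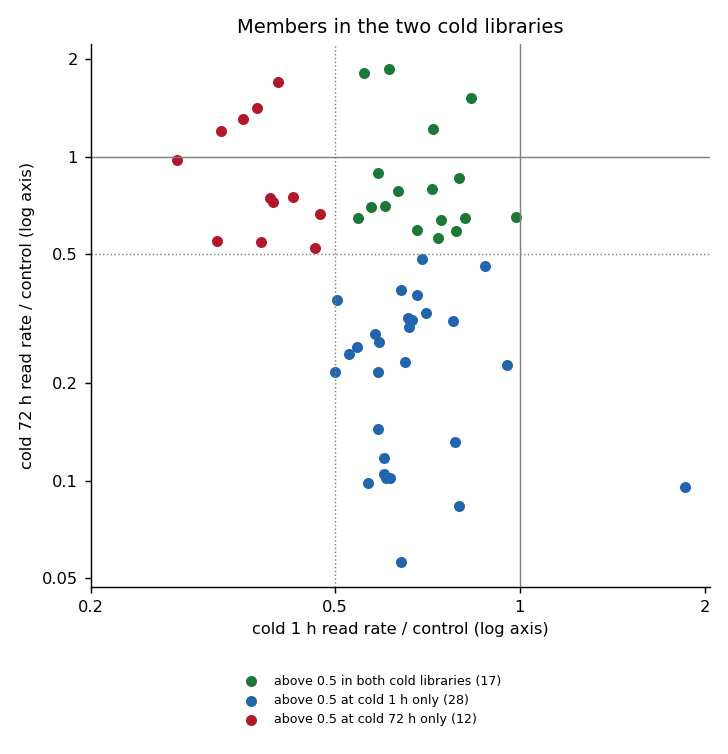
Ratio of each member to the control at cold 1 h (horizontal) and cold 72 h (vertical), both on log axes, coloured by the 3 groups of 17, 28 and 12 members. Solid lines mark the control and dotted lines 0.5; 1 member lies right of the control line and 8 lie above it, and no member lies at or under 0.5 on both axes, which the rule leaves out.

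Cold and drought were set against each other at matched times, which leaves the control library out of the ratio but not out of the choice of members. Much of the result is set by the rule: a member above 0.5 of the control in a cold library must exceed every drought library. At 1 h, 51 members were higher in cold than in drought, of which 45 had to be by the rule, with a median ratio of 1.55 against 1.02 over unigenes with at least 30 control reads. The interval was above 1 for 22 members and below 1 for none. Called higher in cold were 5 members, Unigene21658_All, CL7776.Contig1_All, CL9602.Contig2_All, Unigene17382_All and Unigene4390_All, against 0.146% of unigenes, and 0 were called lower against 0.726%. Unigene4390_All had the largest ratio, 9.70 (4.21 to 27.5), and Unigene21658_All followed with 7.87 (2.80 to 30.6). Unigene17382_All stood at 4.23 (2.34 to 8.18), CL7776.Contig1_All at 2.59 (2.09 to 3.23) and CL9602.Contig2_All at 2.34 (2.13 to 2.58).

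At 72 h, 37 members were higher in cold than in drought and 20 lower. Of the 37, 29 had to be higher by the rule, so nothing is read from the distance to the background here or at 1 h. The members had a median ratio of 1.54 against 0.830 over unigenes with at least 30 control reads. With TMM scaling 39 were higher, and the medians were 1.86 and 1.01. The interval lay above 1 for 28 members and below 1 for 9. Called higher in cold were 11 members against 4.09% of unigenes. The leading ones were Unigene21658_All, with a ratio of 18.3 (4.70 to 158), Unigene576_All, with 10.2 (5.34 to 22.1), CL354.Contig1_All, with 9.71 (4.18 to 27.6), and CL8175.Contig1_All, with 5.49 (4.30 to 7.08). Unigene37125_All, CL9602.Contig2_All, Unigene2900_All, Unigene28109_All, CL9598.Contig1_All, CL3900.Contig1_All and CL9492.Contig2_All made up the rest. The 1 member called lower in cold, against 6.42% of unigenes, was Unigene44062_All (249 bases), with 16 reads at drought 72 h and 1 at cold 72 h. Unigene21658_All and CL9602.Contig2_All were called higher in cold at both times.

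Within drought the members were lowest at 24 h most often, in 32 of 57, against 8 at 1 h and 17 at 72 h. From 1 to 24 h the rate was lower for 45 members, with a median ratio of 0.668 against 0.980 over unigenes with at least 30 control reads. For 18 members the interval lay below 1 and for none above it. No matching shares over all unigenes were computed for interval counts within drought or for the lowest library, so nothing is read from them. Only CL7776.Contig1_All was called lower at 24 than at 1 h, 3.34-fold (2.27 to 5.02), where 1.01% of unigenes were; 0 members were called higher, where 0.340% of unigenes were.

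From 24 to 72 h the rate was higher for 35 members, with a median ratio of 1.16 against 1.01 over unigenes with at least 30 control reads, and the interval lay above 1 for 9 members and below 1 for none. CL7776.Contig1_All was again the 1 member called, now higher, against 0.258% of unigenes, and 0 were called lower against 0.170%. CL9602.Contig2_All was 1.81-fold higher at 72 than at 24 h (1.63 to 2.02) and CL1268.Contig2_All 1.68-fold (1.61 to 1.74). Unigene576_All, Unigene37125_All, CL237.Contig1_All and Unigene2900_All were among the members with a lower rate at 72 h than at 24 h, with intervals that held 1.

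Between 1 and 72 h no member was called in either direction, against 1.11% of unigenes called lower and 0.217% called higher. The interval lay below 1 for 9 members and above 1 for 2. Unigene37125_All was 2.86-fold lower at 72 than at 1 h (1.89 to 4.44), CL237.Contig1_All 2.60-fold (1.79 to 3.84) and Unigene2900_All 2.28-fold (1.73 to 3.04). All 3 had descending values from 1 to 24 to 72 h. The same drought libraries were used by the rule, which bounds each of them by the control. It states no order among them, but its limit was not met equally often at each time. Of unigenes with at least 30 control reads, the fewest were at or under 0.5 of the control at drought 1 h. The most were at 24 h. How far this unequal limit alone gives the order of drought times among the members was not tested. Nothing is therefore read from that order, here or above.

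Contigs that the assembly grouped into 1 cluster may be splice forms or near-identical copies that compete for uniquely assigned reads. Of the members, 17 were contigs of 17 different clusters (29.8%, against 31.7% of unigenes with at least 30 control reads), so no cluster held 2 members. Summed over all contigs, 10 of the 17 clusters had a rate of at most 0.5 of the control in all 3 drought libraries. The sum includes the member, which held over 90% of the control reads in 7 of the 10, so for those the sum restates the rule. The non-member contigs are those that did not pass the rule, so they are no independent check on it. In 7 clusters they had at least 30 control reads in sum. In 6 of these their pooled drought rate lay below the control with its interval, at ratios of 0.300 to 0.793. No share over all unigenes was computed for such intervals, and all these ratios share 1 control library. By themselves the non-member contigs met the drought limits in 2 clusters, CL2119 and CL354, where they had 10 and 8 control reads. Any single contig with at least 30 control reads that met these limits would be a member unless the cold limits left it out.

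The share of a cluster's reads held by its member does not depend on library totals, and it changed between libraries in several clusters. The member was chosen for low drought rates and the other contigs were not, so a lower share in drought is favoured by the rule. The same holds for a lower pooled drought ratio than the other contigs, so nothing is read from these drought differences. CL9602.Contig2_All made up 39.2% of the reads of its 4 contigs in the control (exact 95% interval 38.0 to 40.4). In drought it made up 20.4, 17.5 and 22.3% at 1, 24 and 72 h, and in cold 27.6% at 1 h and 47.3% at 72 h (46.3 to 48.4). The other 3 contigs had 3813 control reads, 2315, 2554 and 3699 in drought and 3824 and 4711 in cold. Their pooled drought ratio was 0.793 (0.763 to 0.824), against 0.316 for the member. CL1075.Contig1_All made up 29.0% of its cluster in the control (25.2 to 33.0), 14.95, 13.5 and 14.5% in drought, 16.0% at cold 1 h and 38.9% at cold 72 h. The other contig had 380 control reads, 347, 411 and 442 in drought and 336 and 168 in cold, with a pooled drought ratio of 1.11 (0.992 to 1.25), and the cluster as a whole did not meet the drought limits. CL1268.Contig2_All made up 74.1% of its cluster in the control (73.5 to 74.7), 65.3, 59.2 and 69.9% in drought and 66.9 and 58.5% in cold at 1 and 72 h. CL4281.Contig4_All made up 7.0% in the control (5.43 to 8.85) and 2.93% at drought 24 h (1.68 to 4.72). CL9492.Contig2_All differed in cold, with 83.1% in the control (78.2 to 87.3) and 95.3% at cold 72 h (92.4 to 97.3), while its drought shares of 79.8 to 82.9% had intervals that overlapped the control's.

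In the cluster of CL8175.Contig1_All both contigs were lower in drought and at cold 1 h and higher at cold 72 h. The other contig had 393 control reads, 190, 138 and 152 in drought, 152 at cold 1 h and 815 at cold 72 h. Its pooled drought ratio was 0.431 (0.376 to 0.494), and at drought 1 h it stood at 0.525 of the control against 0.342 for the member. The member's share was 39.5% in the control (35.8 to 43.4) and 29.9% at drought 1 h (24.5 to 35.7), just below the control's interval. At drought 24 and 72 h it was 34.6% (28.2 to 41.4) and 34.2% (28.1 to 40.7), and at cold 1 h 39.7% (33.6 to 46.0). These intervals overlapped the control's. At cold 72 h the share was 33.0% (30.4 to 35.75), again just below the control's interval. In the cluster of CL9144.Contig1_All the other contig had 53 control reads, 27, 10 and 8 in drought and 40 and 3 in cold, again low in drought and at cold 72 h. In that of CL1268.Contig2_All the other 3 contigs had a pooled drought ratio of 0.616 (0.596 to 0.636), and in that of CL4281.Contig4_All the other 2 had 0.741 (0.682 to 0.805).

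**Figure D4:**
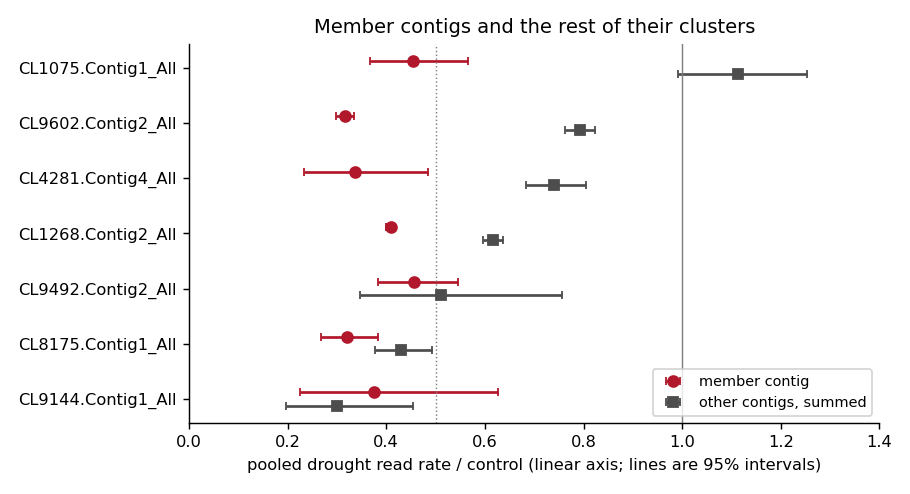
Pooled drought read rate relative to the control on a linear axis for 7 member contigs (circles) and for the sum of the other contigs of their clusters (squares), with 95% counting intervals. The members lie at or under 0.5 by the rule; the other contigs run from 0.300 (CL9144.Contig1_All) to 1.11 (CL1075.Contig1_All), and 6 of the 7 lie below 1 with their interval.

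The members were shorter than the unigenes they were drawn from, with a median of 609 bases (202 to 2442) against 937. Unigenes under 500 bases made up 35.1% of the members and 16.9% of the unigenes with at least 30 control reads. Among those with 39 to 149 control reads, the interquartile range of the members, the medians were 649 bases for 31 members and 844 bases for 9173 unigenes. The median control level was alike, at 21.5 RPKM for the members and 22.1 RPKM for all with at least 30 control reads. The 74 unigenes that met the drought limits but not the cold limits were shorter still, with a median of 504 bases and 30.1 RPKM. These are descriptions, since short unigenes of a given RPKM have fewer reads and wider counting error.

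Reads covered a median of 89.2% of the length of the members in the control, against 87.9% for all unigenes with at least 30 control reads. The median was 74.3, 61.5 and 65.0% in drought at 1, 24 and 72 h and 82.0 and 75.8% in cold, in the order of the members' median read counts of 20, 16 and 19 in drought and 37 and 27 in cold. Control coverage was under 50% for 3 members, CL8175.Contig1_All, CL956.Contig1_All and CL3601.Contig2_All, and at least 90% for 25.

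Near the limits of the rule, CL9492.Contig2_All and Unigene44062_All were the members with the highest drought ratio, 0.497 at 72 h and 0.493 at 1 h. The unigenes next to them outside were Unigene33910_All and Unigene23593_All, both at 0.504 at 72 h with 18 and 15 reads. For the cold limit of 0.5, Unigene3178_All at 0.501 and Unigene17233_All at 0.505 at 1 h were inside, and CL7590.Contig1_All at 0.489 and CL8635.Contig1_All at 0.488 outside. For the limit of 2 at cold 72 h, CL9602.Contig2_All at 1.87 and CL9598.Contig1_All at 1.81 were inside, and CL4528.Contig2_All at 2.11 and Unigene39587_All at 2.34 outside. For both unigenes outside the drought limit, 1 read fewer at 72 h would have met it.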

How the data were processed

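For each library the authors deposited the length of every unigene, its uniquely assigned read count, the percent of its length covered and its RPKM, per the file headers. The tool Bowtie 0.12.2 is listed, per the submitters' processing notes; neither assembler nor unigene filter is stated there. The deposited counts summed to the header totals and gave back the deposited RPKM. Tables were joined by identifier, with a missing unigene taken as 0 reads.

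Ratios are reads over header totals, with the exact conditional (Clopper-Pearson) 95% interval over all unigenes (scipy 1.17.1), and RPKM intervals are exact Poisson. The labels name no molecular identifiers, so reads may share a molecule, and intervals cover counting error only. The computation was tested on simulated data. With 1 library per group no count model was fitted; edgeR 4.0.16 and DESeq2 1.42.0 gave only alternative scale factors (R 4.3.3).

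The members and lists were chosen with earlier results of these data known. Members with full values are the 12 with the lowest upper bound of pooled drought over control, the 6 with the highest control RPKM, the 4 leading in cold over drought at each time, the 3 leading in each direction within drought, the clusters with 2 or more members (there were none), and those next to a limit. CL3900.Contig1_All, CL1075.Contig1_All, CL9144.Contig1_All, CL4281.Contig4_All, CL3601.Contig2_All, the cluster CL2119, Unigene27090_All, Unigene19403_All, Unigene19404_All, Unigene19405_All and Unigene19407_All were named after their values were seen.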

Additional observations from a re-analysis of the deposited data

Results flagged for a closer look

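At 72 h, 6 members were below the control in drought and above it in cold, each with the whole 95% counting interval on its side of 1. The drought side was set by the rule, and the drought 72 h interval lay below 1 for all 57 members. The cold side could vary up to the rule's limit of 2, and no share over all unigenes was computed for it. With 1 library per group this difference in direction was not tested across samples, and all ratios share 1 control. The cold 72 h ratio to the control was 1.87 (1.78 to 1.97) for CL9602.Contig2_All, 1.81 (1.55 to 2.12) for CL9598.Contig1_All and 1.70 (1.45 to 1.995) for CL8175.Contig1_All. It was 1.51 (1.28 to 1.80) for CL9492.Contig2_All, 1.41 (1.06 to 1.90) for CL3900.Contig1_All and 1.20 (1.05 to 1.38) for Unigene28109_All. At cold 1 h the interval lay below 1 for 5 of the 6, while for CL9492.Contig2_All the ratio was 0.834 (0.684 to 1.02) and its interval held 1. TMM scaling raises cold 72 h ratios and leaves these directions as they are.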

How the results depend on the processing

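The rule gave 57 members with library totals and 63, 62 and 64 with TMM, upper-quartile and median-of-ratios factors, of which 52, 53 and 52 were shared. Without a filter on control reads it gave 340, with at least 60 control reads 31, at a drought limit of 0.4 of the control 22 and at 0.6 166, and with at least 500 bases 37. Leaving out the clause on 1 library gave 29 (cold 1 h) to 252 (drought 1 h); it was 73 without drought 24 h, 125 without drought 72 h and 54 without cold 72 h, of which 45 were shared.

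With a stricter interval (error rate of 0.001 in place of 0.05) the members called lower in drought were 8, 19 and 16 at 1, 24 and 72 h and 6 at all times; called lower at cold 72 h were 11, lower from drought 1 to 24 h 0, and higher in cold than drought at 1 h 1. With the interval only beyond 1 and a ratio of at least 2, all 57 were lower at each drought time, 12 and 28 lower at cold 1 and 72 h, 9 lower from drought 1 to 24 h, 3 higher from 24 to 72 h, 5 lower from 1 to 72 h, and 11 and 23 higher in cold than in drought at 1 and 72 h. Median-of-ratios factors gave 11 lower at cold 72 h, and each of the 3 factors gave 1 higher there. No shares over all unigenes were computed for calls under these changed settings, so the counts describe the members only. The non-member contigs met the drought limits in 2 clusters, against 10 for whole clusters. The sums for whole clusters include the member, and the non-member contigs are those that did not pass the rule. The difference between 2 and 10 is thus largely set in advance. The cause of these shifts was not tested beyond what each setting changes by construction. The other 70 recomputed values stayed within 1.5 times.

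Of 23 members described by the rule, the pooled drought ratio was under 1 at each setting, as the drought limit of 0.5 largely fixes. Its interval no longer lay below 0.5 for Unigene17382_All without drought 1 h (0.377) and for Unigene17233_All (0.335) and CL9598.Contig1_All (0.416) without drought 24 h, and newly did for Unigene4390_All (0.261) without drought 24 h. No paired analysis was possible because each group has 1 library. Depth limits unigenes near 30 control reads, where the drought limit lies at 13 or 14 reads.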

Other observations

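The consecutive identifiers Unigene19404_All, Unigene19405_All and Unigene19406_All, are all members, and they are the only members with neighbouring numbers among the 40 members not in a cluster. Unigene19404_All had 556 control reads, 191, 102 and 203 in drought and 354 and 153 in cold. Unigene19405_All had 57 control reads, 16, 14 and 15 in drought and 26 and 35 in cold, and Unigene19406_All had 74, then 16, 9 and 21, then 43 and 8. The identifiers on either side, Unigene19403_All and Unigene19407_All, had 8 and 9 control reads. The labels do not say what the numbering stands for, and whether the 3 are pieces of 1 transcript was not tested; at cold 72 h they differed, with Unigene19405_All nearest to the control.

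CL8175.Contig1_All had 100 reads at cold 1 h that covered 9.01% of its length, while 73 to 81 reads in drought covered 18.6 to 19.96% and 402 reads at cold 72 h covered 21.4%. Its reads thus fell on a smaller stretch in that library than in others with fewer reads.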
